A study of Mus musculus with 8 samples.

Results

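The probe sets described are those of the antibody light chains, kappa and lambda, in RNA from whole distal trachea and carina. They were taken from the array annotation as every probe set with at least 1 gene symbol starting with Igk or Igl, apart from Igll1 and Iglon5, and none of them also carried a heavy chain symbol. The rule gave 33 of 45037 probe sets, 29 of kappa and 4 of lambda. The tissue came from 4 old (14 month) and 4 young (2 month) female mice of the C57Bl/6 strain with no treatment, and 1 Affymetrix Mouse Genome 430 2.0 array was run per mouse. Mice carry the numbers of their labels, 1, 2, 5 and 6 for old and 3, 4, 7 and 8 for young. No cells were sorted, so in these bulk samples a higher signal from more cells of a type and from more RNA per cell cannot be told apart.

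An antibody is made of paired heavy and light chains, and each B cell lineage normally uses 1 light chain, either kappa or lambda. To make a kappa chain, a developing B cell joins 1 of many variable (Igkv) segments to a joining (Igkj) segment upstream of the single constant region Igkc, and lambda chains are built in the same way from few segments in the mouse. Igkc is therefore part of every kappa chain, whereas a variable segment is part only of the chains of cells and clones that chose it. RefSeq lists 3 lambda constant genes (Iglc), and the array annotation names 1 of them, Iglc1. Plasma cells, the B cell descendants that secrete antibody, hold very large amounts of this RNA and are known residents of mucosal tissue. In the RefSeq gene table of the GRCm38.p6 mouse assembly, 162 Igkv segments (pseudogenes included) lie on chromosome 6 with Igkc, against 3 Iglv segments on chromosome 16.

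The 33 probe sets fall into 5 classes by their symbols. Of the kappa probe sets, 3 carry Igkc together with Igkj1, Igkv6-23, Igkv4-53 and Igkv8-30, 22 carry variable segments alone and 4 carry only the symbol of the whole locus, Igk. Of the lambda probe sets, 1 carries Iglc1 with the variable segment Iglv1 and 3 carry Iglv1 alone. A total of 24 probe sets have 1 symbol and 9 have several, and 12 have identifiers ending in _x_at or _s_at, which mark probes that can hybridise to related transcripts. For 13 probe sets the annotation names a source sequence that another light chain probe set shares, 6 source sequences in all. The probe sets therefore do not count separate genes or separate clones.

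The deposited signals are on a linear scale in arbitrary units, with a mean of 500.002 on every array after the top and bottom 2% of probe sets were left out, and medians of 150.0 to 161. No detection calls accompany them. The signals were taken to log2, and old and young mice were compared by limma over all 45037 probe sets, with Benjamini-Hochberg adjustment across the whole array (adjusted p). Every log2 fold change is old minus young and is followed by its standard error (SE), and signals of a group are given as the mean ± SD of 4 mice. The tissue label was borne out by the secretory cell gene Scgb1a1, at 25658 to 31083 in old and 26941 to 30905 in young mice, and by the smooth muscle gene Acta2, at 23657 to 27399 in old and 24280 to 27481 in young mice. Of 8 listed tracheal genes, 1 had a positive log2 fold change, and the median was -0.055. That gene was the basal cell gene Krt5 (0.31, SE 0.10, adjusted p = 0.335 by limma). It was at 1854 to 2298 in old and 1465 to 1721 in young mice, without overlap. The smooth muscle gene Myh11 was at -0.41 (SE 0.11, adjusted p = 0.244 by limma) and the cartilage gene Acan at -0.56 (SE 0.17, adjusted p = 0.301). For both, every old mouse lay below every young mouse. Of 3 measured salivary or thyroid genes, 1 had a positive log2 fold change, the thyroid gene Tg (1.14, SE 0.42, adjusted p = 0.380), and its ages overlapped.

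Light chain signal was higher in the tracheas of old mice for nearly every probe set of both chains. Of the 33 probe sets, 32 had a positive log2 fold change, and the median over all 33 was 2.77, against -0.0062 over all probe sets tested. In 24 of the 33 the lowest old mouse exceeded the highest young mouse, and in 0 of 33 the ages were separated the other way round, where 4.05% of all probe sets lay wholly above and 3.75% wholly below. When a raw p below 0.05 and more than a 2-fold change were asked for, 27 were higher in old mice and 0 lower, where 1.19% of all probe sets were higher and 0.802% lower. With adjusted p below 0.05, 4 were higher and 0 were lower, where 0.0533% of all probe sets were higher and 0.0178% lower. All 4 were kappa variable probe sets. The number of such calls depended on the setting and did not always move with that of the whole array. Leaving out either old mouse 1 or young mouse 7 gave 0 calls here and 0 over all probe sets. It was 15 with a trended and robust variance prior, when 555 of all probe sets were called, against 32 in the fit reported here. With signals raised to a floor of 64 it was 2, when 129 of all probe sets were called.

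**Figure D1:**
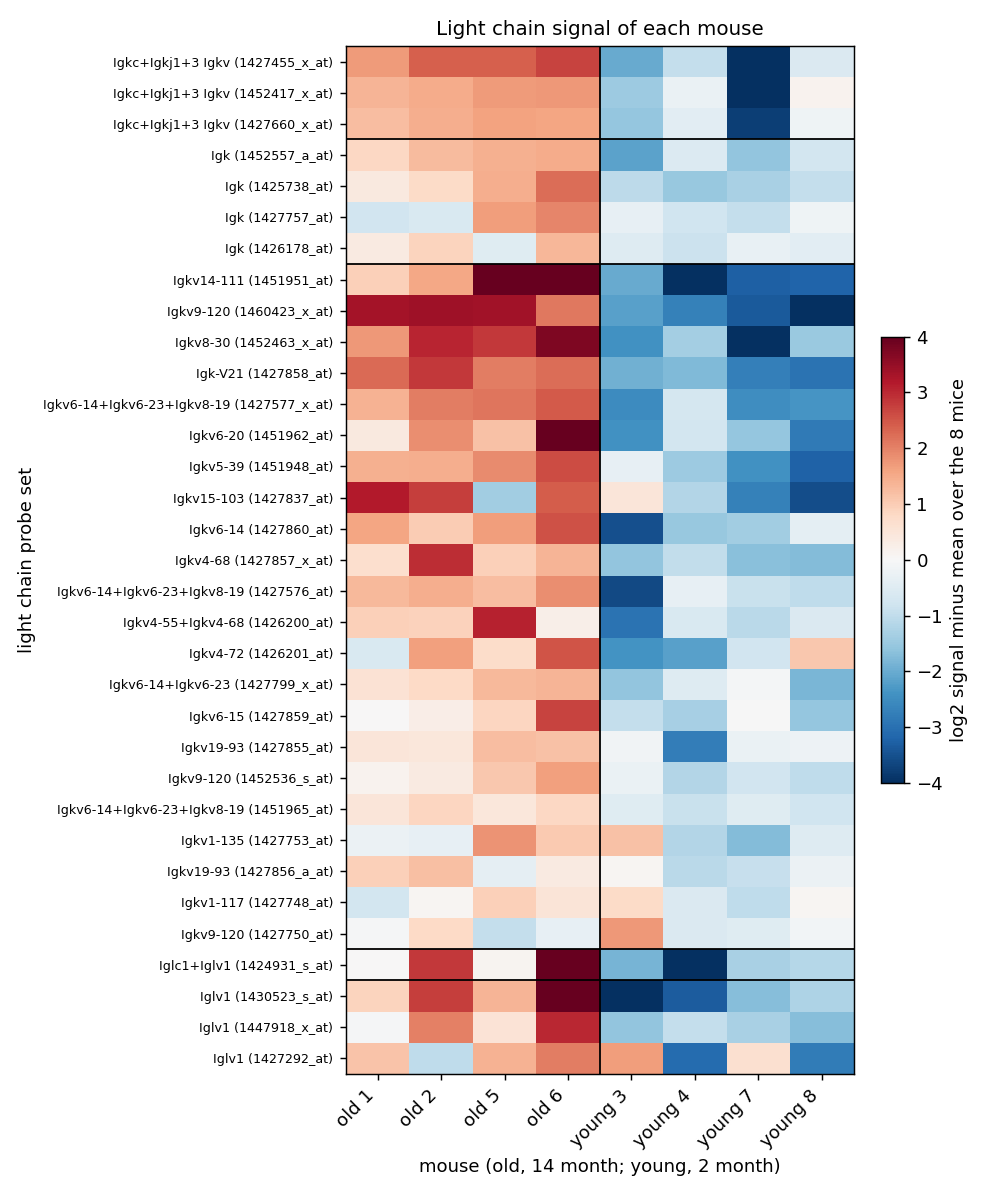
Log2 signal of each of the 33 light chain probe sets (rows, grouped by class and ordered by fold change) in each mouse (columns, 4 old mice left and 4 young mice right), relative to the mean of that probe set over the 8 mice. Most rows are red in all old mice and blue in all young mice, and 24 of 33 do not overlap between ages.

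The plot of the log2 signal by mouse shows rows that are even across the old mice, such as those of Igkc, and rows in which 1 old mouse is darkest, such as those of Iglc1 and Iglv1. The 2 patterns are described in turn, first for constant and then for variable segments.

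The kappa constant region was high and even in old mice and lower and uneven in young mice. The probe set with the highest mean log2 signal of the 3 had signals of 10149.7, 11747, 13182 and 12925 in old mice 1, 2, 5 and 6, against 1483, 3222, 316 and 3786 in young mice 3, 4, 7 and 8. The old mice spanned 1.30-fold and the young mice 12.0-fold, and the lowest old mouse was 2.68 times the highest young mouse. Its mean was 12001 ± 1383 in old and 2202 ± 1594 in young mice (SD, n = 4 each), and the log2 fold change was 2.95 (SE 0.74, adjusted p = 0.223 by limma).

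A second probe set with the same symbols was at 11744, 19157, 18974 and 23831 in old mice 1, 2, 5 and 6, against 902, 1894, 74.2 and 2415 in young mice 3, 4, 7 and 8. The third was at 7738, 8529, 9818 and 10111 in old mice 1, 2, 5 and 6, against 1093, 2521, 116 and 3318 in young mice 3, 4, 7 and 8. All 3 ranked the young mice alike, with mouse 7 lowest and mouse 8 highest, and all 3 were lowest in old mouse 1 among the old mice. Their log2 fold changes were 4.59 (SE 1.04, adjusted p = 0.185) for the second and 3.15 (SE 0.98, adjusted p = 0.309) for the third by limma. None of the 3 passed the adjusted threshold, and all 3 were higher by the 2-fold and raw p thresholds, where 1.19% of all probe sets were. The SD of log2 signal in young mice was 1.64 to 2.30 and in old mice 0.17 to 0.43.

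The lambda probe set with a constant region symbol was instead uneven in old mice. The probe set of Iglc1 and Iglv1 was at 167, 1197, 179 and 11268 in old mice 1, 2, 5 and 6, against 46.2, 6.23, 67.8 and 75.8 in young mice 3, 4, 7 and 8. The ages did not overlap, but old mouse 6 was 9.41 times the next old mouse and held 88.0% of the summed signal of the 4 old mice. The mean was 3203 ± 5399 in old and 49.0 ± 31.1 in young mice (SD, n = 4 each), and the log2 fold change was 4.52 (SE 1.48, adjusted p = 0.332 by limma), and 3.24 without old mouse 6 (adjusted p = 0.402). The old mice spanned 67.3-fold, compared with 1.30-fold to 2.03-fold for the 3 Igkc probe sets.

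Iglv1, the variable segment of lambda used with Iglc1, followed the same order of old mice in its bright probe sets. In the brighter it was at 402, 1464, 553 and 11192 in old mice 1, 2, 5 and 6, against 10.3, 21.6, 66.2 and 91.2 in young mice 3, 4, 7 and 8. In the dimmer of these it was at 138, 582, 211 and 1169 in old mice 1, 2, 5 and 6, against 48.0, 74.8, 58.2 and 44.3 in young mice 3, 4, 7 and 8. In both, old mouse 6 was highest, old mouse 2 next and old mouse 1 lowest, as for Iglc1, and no old mouse overlapped a young mouse. The Iglc1 probe set carries the symbol Iglv1 too and its identifier ends in _s_at, so these signals are not separate from its own. Old mouse 6 held 82.2% of the summed old signal in the brighter and 55.7% in the dimmer. Their log2 fold changes were 5.34 (SE 1.16, adjusted p = 0.169) and 2.77 (SE 0.64, adjusted p = 0.193) by limma, and without old mouse 6 the brighter was 4.34 (adjusted p = 0.201). The last lambda probe set, also of Iglv1, was dim, at 25.1, 5.66, 30.2 and 47.9 in old mice 1, 2, 5 and 6, against 36.8, 1.36, 18.0 and 1.64 in young mice 3, 4, 7 and 8. Its groups overlapped, and its log2 fold change was 1.78 (SE 1.23, adjusted p = 0.643 by limma).

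**Figure D2:**
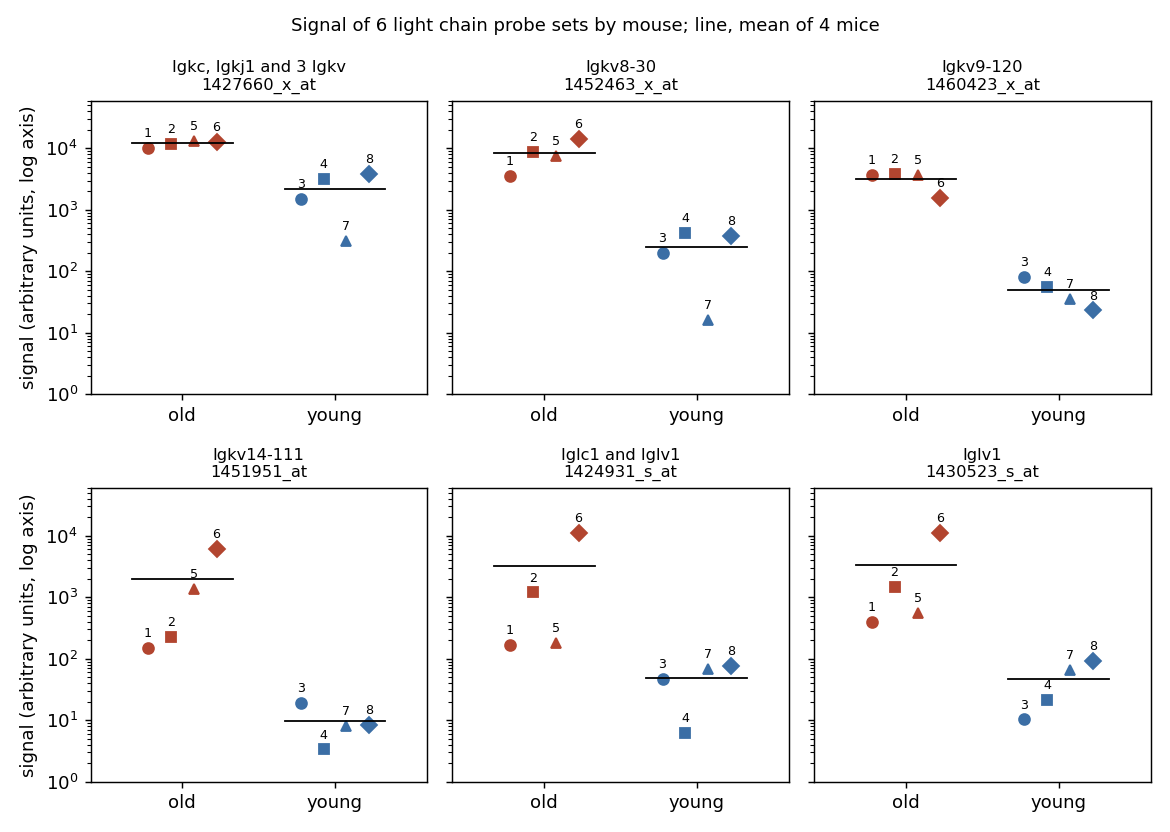
Signal of 6 light chain probe sets by mouse (log axis, arbitrary units), with old mice left and young mice right in each panel. Each point is 1 mouse with its number, and each line is the mean of 4 mice. Old mice lie together for the Igkc probe set, and for the brightest Igkv9-120 probe set old mouse 6 lies below the other old mice, whereas it stands above the other old mice for Igkv14-111, Iglc1 and Iglv1.

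Kappa and lambda were compared in a single value per mouse, the log2 signal of the Igkc probe set with the highest mean log2 signal minus that of the Iglc1 probe set. Since different probes have different brightness, only its change between mice can be read. It was 5.92, 3.29, 6.20 and 0.20 in old mice 1, 2, 5 and 6, against 5.0, 9.02, 2.22 and 5.64 in young mice 3, 4, 7 and 8. The ages overlapped, with a mean of 3.90 ± 2.80 in old and 5.47 ± 2.79 in young mice (SD, n = 4 each), a difference of -1.57 (exact permutation test, two-sided, p = 0.486, over all 70 divisions of 8 mice into 4 and 4, where the smallest p is 0.0286). The lowest value of all was that of old mouse 6 and the highest that of young mouse 4. The difference was -0.33 without old mouse 6 (exact permutation test, p = 0.971), -0.38 without young mouse 4 (exact permutation test, p = 0.886) and -2.65 without young mouse 7 (exact permutation test, p = 0.286). It also depends on the Igkc probe set chosen. The one used had the lowest log2 fold change of the Igkc probe sets, 2.95 against 4.59 and 3.15, where that of Iglc1 was 4.52. As a description, the median log2 fold change was 2.61 over the 29 kappa probe sets and 3.64 over the 4 lambda probe sets, and without old mouse 6 it was 2.80 over the kappa and 2.73 over the lambda probe sets. Of kappa probe sets 24 were higher by the 2-fold and raw p thresholds, and of lambda probe sets 3, where 1.19% of all probe sets were.

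Among the kappa variable probe sets, 21 of 22 had a positive log2 fold change, with a median of 2.77, compared with 3.15 for the 3 Igkc probe sets. In 16 of 22 the ages did not overlap, and 18 passed the 2-fold and raw p thresholds. All kappa probe sets together carry 18 variable segment symbols, Igk-V21 and the Igkv4-53 of the Igkc probe sets included. Those found in the RefSeq table run along the locus from Igkv1-135, the segment in position 3 of 162 from the end far from Igkc, to Igkv6-14 in position 148. Segments without overlap between the ages occurred from Igkv9-120 in position 20 to Igkv6-14 in position 148. RNA of a rearranged segment carries Igkc as well, so segment and Igkc signals are not separate transcripts.

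In its brightest probe set Igkv9-120 rose far and in every old mouse. The signal there was 3685, 3806, 3741 and 1579 in old mice 1, 2, 5 and 6, against 80.8, 56.1, 35.3 and 23.1 in young mice 3, 4, 7 and 8. The lowest old mouse was 19.5 times the highest young mouse, the largest such gap among the 33 light chain probe sets, and the log2 fold change was 6.10 (SE 0.45, adjusted p = 0.0129 by limma). Old mouse 6, the mouse with the highest lambda signals, was the lowest old mouse here. The other probe sets of Igkv9-120 differed from this one. One was dim in every mouse, at 7.64, 13.7, 4.07 and 6.30 in old mice 1, 2, 5 and 6, against 26.2, 5.31, 5.62 and 7.29 in young mice 3, 4, 7 and 8, and the log2 fold change was -0.27 (SE 0.58, adjusted p = 0.903). The other was at 189, 217, 357 and 526 in old mice 1, 2, 5 and 6, against 140, 74.9, 100 and 84.8 in young mice 3, 4, 7 and 8. It was thus highest in old mouse 6, and its ages did not overlap. Its log2 fold change was 1.61 (SE 0.36, adjusted p = 0.172).

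Igk-V21, a kappa variable symbol not found in the RefSeq table, shares its source sequence with the brightest Igkv9-120 probe set. It was the other probe set with 1 symbol past the adjusted threshold, and whether the name stands for a single segment is not settled. It was at 44.0, 65.7, 38.3 and 43.4 in old mice 1, 2, 5 and 6, against 2.44, 2.71, 1.38 and 1.18 in young mice 3, 4, 7 and 8. The ages were far apart and the old mice lay within 1.72-fold of each other, but all signals were dim, since the median over all probe sets was a signal of 151 (geometric mean over the 8 arrays). Its log2 fold change was 4.69 (SE 0.31, adjusted p = 0.00990 by limma), and 0.55 (adjusted p = 0.218) with signals raised to a floor of 32.

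The remaining probe sets past the adjusted threshold carry Igkv6-14, Igkv6-23 and Igkv8-19 together, segments that lie close to Igkc. The brighter was at 272, 351, 266 and 342 in old mice 1, 2, 5 and 6, against 137, 104, 138 and 112 in young mice 3, 4, 7 and 8. Its log2 fold change of 1.32 was modest (SE 0.15, adjusted p = 0.0448 by limma), and was 1.25 to 1.39 in the alternative settings. It kept an adjusted p under 0.05 in 6 of 18 of them, and in none that left out a mouse. The dimmer was at 80.3, 127, 136 and 167 in old mice 1, 2, 5 and 6, against 5.30, 18.9, 5.41 and 6.00 in young mice 3, 4, 7 and 8, and the log2 fold change was 4.03 (SE 0.45, adjusted p = 0.0448). With signals raised to a floor of 32 it was 1.95 (adjusted p = 0.0330), and at a floor of 64 it was 0.95 (adjusted p = 0.156). In both, all old mice lay above all young mice and the old mice were within 2.08-fold of each other. Another probe set with these symbols, from the same source sequence as the dimmer, had a log2 fold change of 2.93 (SE 0.67, adjusted p = 0.186).

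Igkv8-30 was the brightest probe set with a single segment name, and in young mice it was, like Igkc, lowest in mouse 7. Its signal was 3551, 8868, 7535 and 14109 in old mice 1, 2, 5 and 6, against 199, 417, 16.1 and 378 in young mice 3, 4, 7 and 8. The lowest old mouse was 8.51 times the highest young mouse, and the log2 fold change was 5.66 (SE 1.05, adjusted p = 0.131 by limma). The 3 Igkc probe sets carry the symbol Igkv8-30 too, so these signals are not separate from that of Igkc. Igkv5-39 was dimmer, at 69.7, 71.4, 96.2 and 160 in old mice 1, 2, 5 and 6, against 20.7, 9.56, 4.85 and 2.77 in young mice 3, 4, 7 and 8. Its ages did not overlap, and its log2 fold change was 3.70 (SE 0.61, adjusted p = 0.101).

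**Figure D3:**
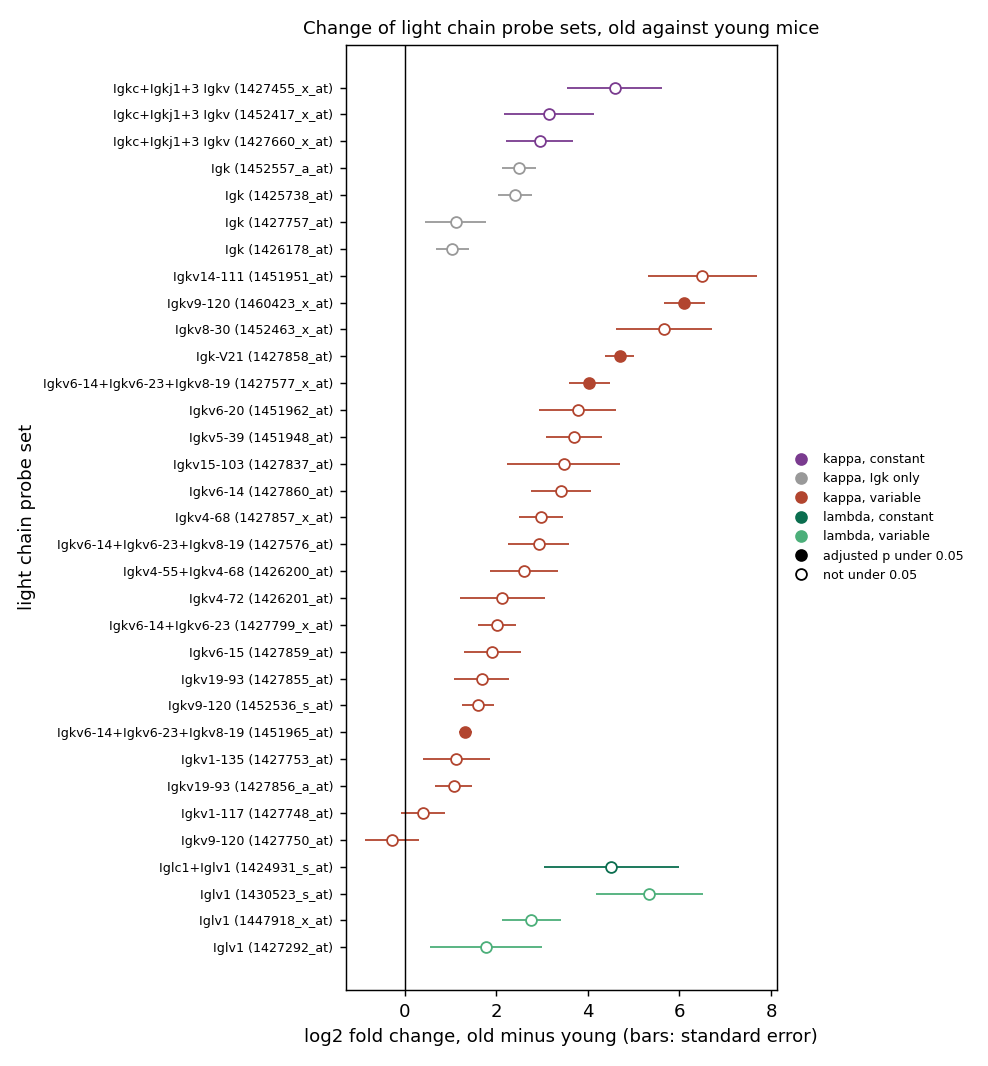
Log2 fold change, old minus young, of each light chain probe set with its standard error, coloured by class. Filled points passed an adjusted p under 0.05 over all 45037 probe sets (4 of 33, all kappa variable), and 32 of 33 points lie above 0.

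In other segments a single old mouse carried most of the signal. Over the 33 probe sets, the highest old mouse held 27.5% to 88.0% of the summed signal of the 4 old mice, where equal shares would give 25%. It held over 50% in 9 probe sets, 3 of the 4 lambda and 6 of the 29 kappa probe sets, and in 7 of the 9 that mouse was old mouse 6. In none of the 3 Igkc probe sets did it hold more than 32.3%.

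The widest kappa spread was that of Igkv14-111, at 149.97, 224, 1379 and 6144 in old mice 1, 2, 5 and 6, against 19.0, 3.34, 8.05 and 8.33 in young mice 3, 4, 7 and 8. Old mouse 6 held 77.8% of the old signal, and the old mice spanned 41.0-fold. The lowest old mouse was still 7.88 times the highest young mouse. Its log2 fold change of 6.5, the largest of the 33, had a SE of 1.20 (adjusted p = 0.130 by limma), and was 5.47 without old mouse 6 (adjusted p = 0.153). With signals raised to a floor of 32 it was 4.51, below the 5.99 of the brightest Igkv9-120 probe set and the 5.42 of Igkv8-30. Igkv6-20 was at 83.1, 233, 143 and 1119 in old mice 1, 2, 5 and 6, against 11.8, 38.5, 21.7 and 8.96 in young mice 3, 4, 7 and 8, with 70.9% of the old signal in old mouse 6. Both segments thus had their highest old signal in the mouse with the highest lambda signal, and neither overlapped between ages.

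Probe sets of the Igkv4 family were highest in different old mice, including those that share the symbol Igkv4-68. Their signals therefore cannot be assigned to single segments. The probe set of Igkv4-68 alone was at 105, 510, 126 and 169 in old mice 1, 2, 5 and 6, against 21.96, 32.9, 20.7 and 19.7 in young mice 3, 4, 7 and 8. Old mouse 2 held 56.0% of the old signal. The probe set shared by Igkv4-55 and Igkv4-68 was at 85.8, 85.1, 379 and 52.7 in old mice 1, 2, 5 and 6, against 5.78, 29.3, 21.2 and 29.6 in young mice 3, 4, 7 and 8, so that old mouse 5 held 62.9%. The ages did not overlap in either, with log2 fold changes of 2.98 (SE 0.48, adjusted p = 0.0973) and 2.61 (SE 0.74, adjusted p = 0.273) by limma. In Igkv4-72 they did overlap, at 23.1, 110.0, 57.8 and 199 in old mice 1, 2, 5 and 6, against 6.67, 7.75, 20.6 and 73.8 in young mice 3, 4, 7 and 8, with 51.0% in old mouse 6. Igkv6-15 was dim in every mouse, at 4.63, 5.46, 8.29 and 30.2 in old mice 1, 2, 5 and 6, against 2.40, 1.81, 4.57 and 1.56 in young mice 3, 4, 7 and 8, with 62.2% in old mouse 6.

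**Figure D4:**
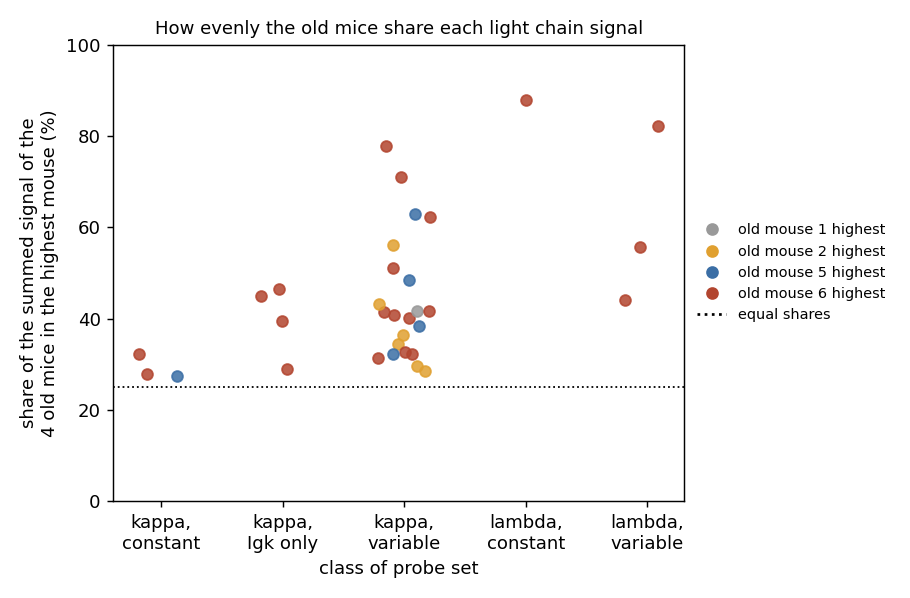
Share of the summed signal of the 4 old mice that the highest old mouse holds, in percent, for each light chain probe set by class, with the colour naming that mouse. The dotted line marks equal shares (25%). The Igkc probe sets lie at 27.5% to 32.3%, the Iglc1 probe set at 88.0%, and the kappa variable probe sets between 28.5% and 77.8%.

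Old mouse 6 was the highest old mouse in 21 of the 33 probe sets and old mouse 1 the lowest in 20. The median deviation of old mouse 6 from the mean of the old mice was 0.48 on the log2 scale and that of old mouse 1 was -0.43. Among young mice no mouse led in the same way, with 11, 8, 4 and 10 probe sets highest in mice 3, 4, 7 and 8. Young mouse 7, lowest in all 3 Igkc probe sets with a median deviation of -3.12, was the lowest young mouse in 3 of the 22 kappa variable probe sets. The share of the old mice above all young mice was full in 24 probe sets, while 3 of 4 old mice lay above in 3 probe sets, 2 in 2, 1 in 3 and 0 in 1.

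The remaining 11 probe sets, of which 6 overlapped between ages, are given in brief. The 4 that carry Igk alone had log2 fold changes of 1.04 to 2.50, and the smallest adjusted p among them was 0.0746 by limma. Igkv6-14 was at 3.41 (adjusted p = 0.136) and the probe set of Igkv6-14 with Igkv6-23 at 2.01 (adjusted p = 0.156). Igkv15-103 was at 3.47 (adjusted p = 0.367), with old mouse 5 at 5.29 below the highest young mouse at 19.8. Of the Igkv19-93 probe sets, 1 was at 90.8, 88.2, 153 and 144 in old mice 1, 2, 5 and 6, against 58.4, 9.54, 53.3 and 56.4 in young mice 3, 4, 7 and 8, a log2 fold change of 1.68 (adjusted p = 0.371), and the other overlapped between ages. Igkv1-135 and Igkv1-117 were dim in every mouse, with no signal above 38.9, and their ages overlapped.

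Dim signals limit several of these values. In 19 of the 33 probe sets all young mice had signals under 64, and in 6 all 8 mice did.

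Heavy chain genes, whose products pair with light chains, are given for the same mice. For Ighm, which encodes the IgM heavy chain, signals were 3165, 5234, 3126 and 19346 in old mice 1, 2, 5 and 6, against 308, 237, 182 and 214 in young mice 3, 4, 7 and 8, so that this gene too was highest in old mouse 6 (log2 fold change 4.61, adjusted p = 0.0531 by limma). The IgA heavy chain gene Igha was even in old mice like Igkc, at 12218, 15652, 17013 and 14501 in old mice 1, 2, 5 and 6, against 932, 2738, 194 and 3364 in young mice 3, 4, 7 and 8, with the same order of young mice as Igkc (log2 fold change 3.70, adjusted p = 0.187 by limma).

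Genes of light chain recombination, assembly and regulation were measured for 25 of 27 listed. By limma none passed an adjusted p under 0.05 in either direction, and the median log2 fold change was 0.28. By the 2-fold and raw p thresholds 6 were higher and 0 lower, where 1.19% of all probe sets were higher and 0.802% lower. The 4 with the smallest p were Jchain, the chain that joins antibody units into polymers (log2 fold change 4.48, adjusted p = 0.0679), Hspa5, an endoplasmic reticulum chaperone that binds free antibody chains (0.50, adjusted p = 0.0861), Pou2af1, a coactivator at octamer sites of antibody promoters (1.98, adjusted p = 0.0970), and Spib, a B cell transcription factor (1.56, adjusted p = 0.0975). Rag1, a subunit of the recombinase that joins the segments, was at 46.2, 2.19, 17.5 and 429 in old mice 1, 2, 5 and 6, against 0.984, 2.80, 0.829 and 0.890 in young mice 3, 4, 7 and 8. It was highest in old mouse 6 and overlapped between ages (adjusted p = 0.313 by limma), and its partner Rag2 had a log2 fold change of -0.36 (adjusted p = 0.903).

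Most marker genes of mature B cells and plasma cells had positive log2 fold changes beside those of the light chains, though none passed an adjusted p under 0.05 by limma. Of 10 plasma cell markers, 9 had a positive log2 fold change, with a median of 0.56, and 4 were higher by the 2-fold and raw p thresholds, where 1.19% of all probe sets were. The summed signal, Jchain included, was 20199 to 32131 in old and 14232 to 15804 in young mice. Jchain alone had a mean of 8178 in old and 400 in young mice, and Xbp1 alone 11457 in old and 9593 in young mice. Sdc1, Irf4, Derl3 and Edem1 had log2 fold changes of 0.10, -0.051, 0.17 and 0.042. Of 9 measured markers of mature B cells, 8 had a positive log2 fold change and 2 passed those thresholds, Ms4a1 and Cd79b, with a median of 0.58 and a summed signal of 848 to 1556 in old and 617 to 714 in young mice. Those 2 were also the only ones without overlap between ages, and Fcer2a was at -0.026. Of 6 pre-B cell markers, 3 had a positive log2 fold change and 1 passed those thresholds, Rag1, with a median of -0.057. The ages overlapped in all of them. Of 6 measured T cell markers, 6 had a positive log2 fold change and 1 passed those thresholds, with a median of 0.59 and a summed signal of 715 to 1150 in old and 472 to 606 in young mice. The largest were those of Cd3d and Cd3g, 0.87 and 1.0 (adjusted p = 0.239 and 0.227 by limma). Cd3e was at 0.51 and Cd8a at 0.10 (adjusted p = 0.353 and 0.874 by limma), and both overlapped between ages. Of 4 measured vessel and stroma genes of lymph nodes, 2 had a positive log2 fold change. The sum, most of it Cxcl13 in every mouse, was 582 to 934 in old and 298 to 482 in young mice. Among them Cxcl13, a chemokine that attracts B cells, was at 473, 498, 836 and 661 in old mice 1, 2, 5 and 6, against 226, 235, 277 and 334 in young mice 3, 4, 7 and 8 (log2 fold change 1.18, adjusted p = 0.128 by limma). Glycam1 was near the lowest signals in every mouse, at 3.43 to 4.72 in old and 2.51 to 5.44 in young mice. Madcam1 and Chst4 had log2 fold changes of -0.024 and -0.12 (adjusted p = 0.987 and 0.932 by limma). The part of these cell types in the light chain changes was not tested.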

How the data were processed

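RNA from 8 mice was hybridised to 8 arrays. The authors' methods state that Partek software ran robust multichip analysis, whereas the labels name only Partek. The deposited intensity values are linear, with 1 trimmed mean on all arrays, which is usual for single-array signals scaled to a target, so how they were made is not settled. After 64 of 45101 probe sets, the array controls, were left out, log2 signals without a floor or filter were fitted by age with limma 3.58.1 (lmFit, eBayes, two-sided) in R 4.3.3. The fit was tested on simulated data.

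Symbols come from the platform annotation, and 22 of 23 light chain symbols were found unchanged in RefSeq (GRCm38.p6) by gene identifier, all but Igk-V21. Other genes took their brightest probe set with that symbol alone. The members, lists and tests were chosen with earlier results of these data known. Signals by mouse are given for constant and lambda probe sets, the 8 kappa variable probe sets with the smallest p, and those where 1 mouse stood apart or held over 50% of the old signal. Alternatives left out each mouse, or changed normalization, floor, variance model, weights, mouse number block, brightness filter or probe set type. The number of arrays limits the precision.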

Additional observations from a re-analysis of the deposited data

Results flagged for a closer look

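Within each age, the 4 mice were examined for 1 mouse far from the others (Dixon's criterion on the linear signal), in 66 groups of 33 probe sets and 2 ages. For normally distributed values chance marks about 1 group in 20. On the linear signal 11 groups were marked, against 4 when log2 signals were used, 3 of them in both. Old mouse 6 was far above the other old mice for Iglc1 with Iglv1 (11268), the brightest Iglv1 probe set (11192), Igkv6-20 (1119) and Igkv6-15 (30.2), and below them for the brightest Igkv9-120 probe set (1579). Old mouse 2 was far above for Igkv4-68 (510) and old mouse 5 for Igkv4-55 with Igkv4-68 (379). Among young mice, mouse 4 was far above for Igkv4-68 (32.9) and for a probe set of Igkv6-14, Igkv6-23 and Igkv8-19 (18.9) and far below for 1 Igkv19-93 probe set (9.54), and mouse 3 was far above for the dimmest Igkv9-120 probe set (26.2). The marked young values were all dim. Marked on both scales were old mouse 6 for Igkv9-120 and young mouse 4 for Igkv19-93 and for Igkv6-14, Igkv6-23 and Igkv8-19 together. None of the old mice far above the others was marked when log2 signals were used.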

How the results depend on the processing

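The direction of the light chain change turned under an alternative in 1 probe set, and the number of calls moved widely. The 4 probe sets higher at an adjusted p under 0.05 became 0 to 3 when each mouse was left out in turn (0 without old mouse 1 or young mouse 7), 2 at a floor of 64, 0 with an ordinary linear model, 15 with a trended and robust prior, 2 when mice 1 to 4 and mice 5 to 8 formed a block each, 8 of 11 among probe sets above the median signal (where 497 of all probe sets were called) and 2 without _x_at and _s_at probe sets. The 27 past a fold above 2 and an unadjusted p became 16 at a floor of 64, 11 of 11 above the median signal and 15 of 21 without _x_at and _s_at probe sets. The median log2 fold change of kappa was 2.21 to 2.85 with each mouse left out, 1.61 at a floor of 32, 0.91 at a floor of 64, 2.95 above the median signal and 2.27 without _x_at and _s_at probe sets. That of lambda was 1.78 for the 1 probe set left by the last setting. The log2 fold change of the dimmest Igkv9-120 probe set, -0.27, was -0.58 to 0.26 with each mouse left out, turning positive without old mouse 5 (0.0031) or young mouse 3 (0.26). The median signal is taken over both ages, so probe sets high only in old mice pass it, and these values are no independent support. Across probe sets and alternatives 19 values gained a call and 32 lost one. Where all mice lay under the floor (4 probe sets at 32 and 6 at 64) no direction was left. The cause of these shifts was not tested, apart from fewer probe sets or mice. No paired analysis was possible because old and young mice share no numbers.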
